A study of Bos taurus with 90 samples.

Results

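The liver of Charolais (CH) steers with low and high residual feed intake (RFI) was compared at the end of the first high-concentrate phase (H1). All libraries labelled Charolais and H1 were taken, which gave 20 of the 90 libraries of the study, 9 from low RFI and 11 from high RFI steers, each from a different animal. Low RFI steers eat less than their weight and growth predict and are the more feed efficient animals. RFI was ranked within breed and phase, so the label of a steer holds for that phase alone. The study took the steers at the extremes of the ranking. On H1 they had a concentrate made mainly of rolled barley, offered freely, with a limited amount of grass silage. Another 2 sets of libraries were used to follow the genes of interest: Holstein-Friesian (HF) steers on H1 (7 low and 9 high RFI) and CH steers on the second high-concentrate phase (H2, 9 low and 8 high RFI), which repeated the H1 diet in the finishing phase after a period on grass. No allele or drug treatment separated any of these groups.

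The liver takes up nutrients from the gut, stores glycogen, makes fatty acids and glucose, and secretes most plasma proteins. After a meal, insulin acts on hepatocytes through insulin receptor substrates, while glucagon and fasting act through cAMP and switch many of the same genes the other way. The liver also holds resident and circulating immune cells, whose inflammatory signals run through NF-kB, a transcription factor kept in check by inhibitors that it induces itself.

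The 20 libraries had 9134700 to 34173085 reads counted on genes, with a median of 22417960 for low and 17684669 for high RFI steers (two-sided exact permutation test of log10 totals, p = 0.299). Pairwise correlations of log2 normalised counts lay between 0.9554 and 0.9895, across genes. No libraries known to come from 1 sample were at hand for comparison, so r alone cannot tell whether any sample was deposited under different numbers. Steer 1797 is labelled CH here and carries an HF label in H2. Over 297 genes that separated the breeds on H1, its H1 library scored 1.00 on a scale that runs from 0 at the HF mean to 1 at the CH mean, inside the range of the other CH libraries (0.564 to 1.35) and outside that of the HF libraries (-0.738 to 0.551). No hepatocyte marker on the list drawn up to check the tissue could be matched to an identifier. FGA and FGG, plasma protein genes found on another list, had at least 6064 and 6251 CPM, respectively, in each library.

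Of 12920 genes tested, edgeR's quasi-likelihood test called 2 at a Benjamini-Hochberg adjusted p under 0.1, which is 0.0155% of the genes, and both were upregulated in low RFI steers. An unadjusted p under 0.05 was reached by 780 genes with higher expression (6.04% of the genes tested) and 738 with lower expression in low RFI steers (5.71%). The DESeq2 Wald test, which the study used, called 160 genes (1.18% of 13609 with an adjusted p), and these included the 2 of edgeR. No gene separated the groups fully: for 0 of 12920 genes (0%) did all 9 low RFI steers lie on one side of all 11 high RFI steers. Below, a gene is said to be upregulated only where edgeR called it, and normalised counts (CPM) are counts scaled to the size of the library with TMM factors, given as mean ± SD, with log2 fold changes of low over high RFI and their standard error (SE).

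TNFAIP3 (ENSBTAG00000000436), which encodes A20, an enzyme that edits ubiquitin chains and shuts NF-kB signalling off, was upregulated in low RFI steers. In the 9 low RFI steers TNFAIP3 had a lowest value of 8.41 CPM in steer 1831, a median of 10.1 CPM and a highest value of 12.9 CPM in steer 1797. In the 11 high RFI steers it had a lowest value of 4.98 CPM in steer 856, a median of 6.84 CPM and a highest value of 8.95 CPM in steer 1320. Only steer 1831 of the low RFI group lay inside the range of the high RFI group, and 9 of 11 high RFI steers lay below every low RFI steer. The log2 fold change was 0.67 (SE 0.11), a 1.59-fold difference (adjusted p = 0.0258 from edgeR). The two-sided exact permutation test over the 167960 splits of the steers gave an unadjusted p = 2.38e-05. TNFAIP3 was picked by its p on these same steers, so the permutation test is not independent evidence. With 1 steer left out at a time, the log2 fold change stayed between 0.63 and 0.72. In 19 of these fits edgeR called TNFAIP3. The exception was the fit without steer 1792, where the adjusted p from edgeR was 0.103, just over the threshold of 0.1, at a log2 fold change of 0.66.

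**Figure D1:**
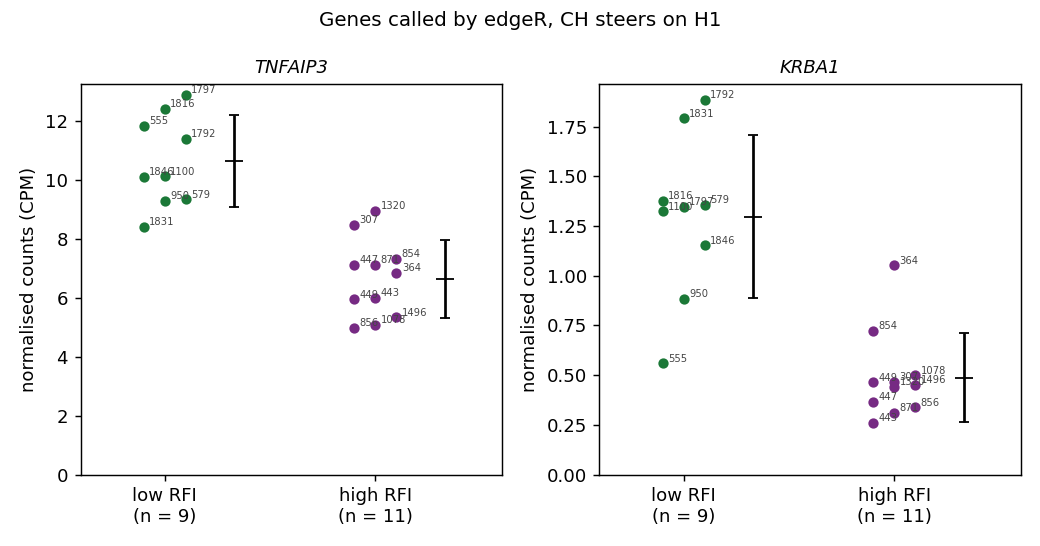
Normalised counts (CPM) of TNFAIP3 and KRBA1 in each CH steer on H1, with the steer number beside each point and the group mean ± SD as a bar. 8 of 9 low RFI steers lie above every high RFI steer for TNFAIP3 and 7 of 9 for KRBA1.

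The second gene called was KRBA1 (ENSBTAG00000010219), which encodes a protein with a KRAB-A domain, a motif of transcriptional repressors. KRBA1 had few reads, 6 to 53 counts in low and 2 to 26 counts in high RFI steers. In low RFI steers its lowest value was 0.559 CPM in steer 555, its median 1.35 CPM and its highest value 1.88 CPM in steer 1792. In high RFI steers the lowest value was 0.260 CPM in steer 443, the median 0.450 CPM and the highest value 1.05 CPM in steer 364. Steers 555 and 950 of the low RFI group lay below steer 364, and the other 7 lay above every high RFI steer. The log2 fold change was 1.39 (SE 0.23), a 2.61-fold difference (adjusted p = 0.0258 from edgeR). The exact permutation test gave an unadjusted p = 9.53e-05, and KRBA1 too had been picked on these same steers. Without steer 1792 its adjusted p from edgeR was 0.103, and with all 12 breed, phase and RFI groups of the study in one fit it was 0.502.

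Other genes of NF-kB feedback did not pass edgeR's test. The symbols available here belong only to genes that the study itself listed, for these 20 libraries or for other breeds and phases, so that 4 of 33 genes of the NF-kB list could be found, all 4 of them had been chosen on the same steers, and their directions are not independent evidence. NFKBIA, the inhibitor that holds NF-kB in the cytoplasm, had 52.7 ± 14.1 CPM in low and 38.5 ± 6.85 CPM in high RFI steers (n = 9 and 11; log2 fold change 0.45, SE 0.13, adjusted p = 0.256 from edgeR). IL1A, an inflammatory cytokine, had 1.04 ± 0.415 CPM against 0.525 ± 0.207 CPM (log2 fold change 1.00, SE 0.25, adjusted p = 0.183). NKIRAS1, a Ras-like protein that slows the breakdown of the inhibitors, went the other way with 3.23 ± 0.388 CPM against 4.41 ± 0.844 CPM (log2 fold change -0.46, SE 0.12, adjusted p = 0.186). Within groups these genes were not tied closely to TNFAIP3: over the 20 steers, after group means were subtracted, Pearson's r of log2 values with TNFAIP3 was 0.41 for NFKBIA, -0.04 for IL1A and -0.17 for NKIRAS1, given as a description.

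Genes that answer to insulin, glucagon and fasting were among those with the smallest p, with 6 of 36 genes of the list found, 4 of them higher and 2 lower in low RFI steers at an unadjusted p under 0.05 and none called by edgeR. All 6 came from the list the study drew from these same steers, so the count, beside 6.04% of all genes higher and 5.71% lower at that p, is not independent evidence. IRS2 encodes the substrate through which the insulin receptor acts on hepatocytes and is itself lowered by insulin. IRS2 had a median of 10.8 CPM in low RFI steers, and 8 of the 9 lay between 7.74 and 13.1 CPM, while steer 950 had 1.59 CPM. High RFI steers had a lowest value of 1.86 CPM, a median of 4.04 CPM and a highest value of 8.30 CPM in steer 449. Steer 950 was thus below every high RFI steer, and 7 low RFI steers exceeded all of them (log2 fold change 1.23, SE 0.26, adjusted p = 0.183 from edgeR and 0.00435 from DESeq2).

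SIK1, a kinase that is induced by cAMP and restrains the gluconeogenic programme, spread more widely in the low RFI group. Its values ran from 3.18 CPM in steer 950 through a median of 9.60 CPM to 24.03 CPM in steer 555 in low RFI steers, and from 2.94 through 4.83 to 7.15 CPM in high RFI steers. On the log2 scale the groups differed by 1.34 (SE 0.30), at an adjusted p of 0.183 in edgeR and 0.00435 in DESeq2. ARRDC3, an arrestin domain protein that acts on membrane receptors, ran opposite: 7 low RFI steers, with 23.7 to 51.3 CPM, were below the lowest high RFI steer at 55.3 CPM, and steer 950 at 86.9 CPM stood near the top of the high RFI range (log2 fold change -0.76, SE 0.20, adjusted p = 0.215). PPP1R3C directs protein phosphatase 1 to glycogen. It had 185 ± 82.5 CPM in low and 288 ± 57.6 CPM in high RFI steers, with steer 950 the highest of the low RFI steers at 371 CPM (log2 fold change -0.64, SE 0.20, adjusted p = 0.256). ERRFI1, a brake on the EGF receptor, and TP53INP1, a stress-induced p53 partner, differed by 0.66 (SE 0.20) and 0.60 (SE 0.18) on the log2 scale, and edgeR gave each an adjusted p of 0.256.

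Some pairs of these genes were correlated from steer to steer. After group means were subtracted, Pearson's r over the 20 steers was 0.69 between IRS2 and SIK1, -0.73 between IRS2 and PPP1R3C, -0.72 between SIK1 and ARRDC3 and 0.56 between ARRDC3 and PPP1R3C, given as a description with no test. Over all 15 pairs of the 6 genes r ran from -0.73 to 0.69 with a median of -0.15, and pairs such as ARRDC3 with TP53INP1 (-0.15) and SIK1 with TP53INP1 (0.21) were weak. In each of IRS2, SIK1, ARRDC3, PPP1R3C, NFIL3 and MID1IP1, steer 950 lay on the side of the high RFI steers.

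**Figure D2:**
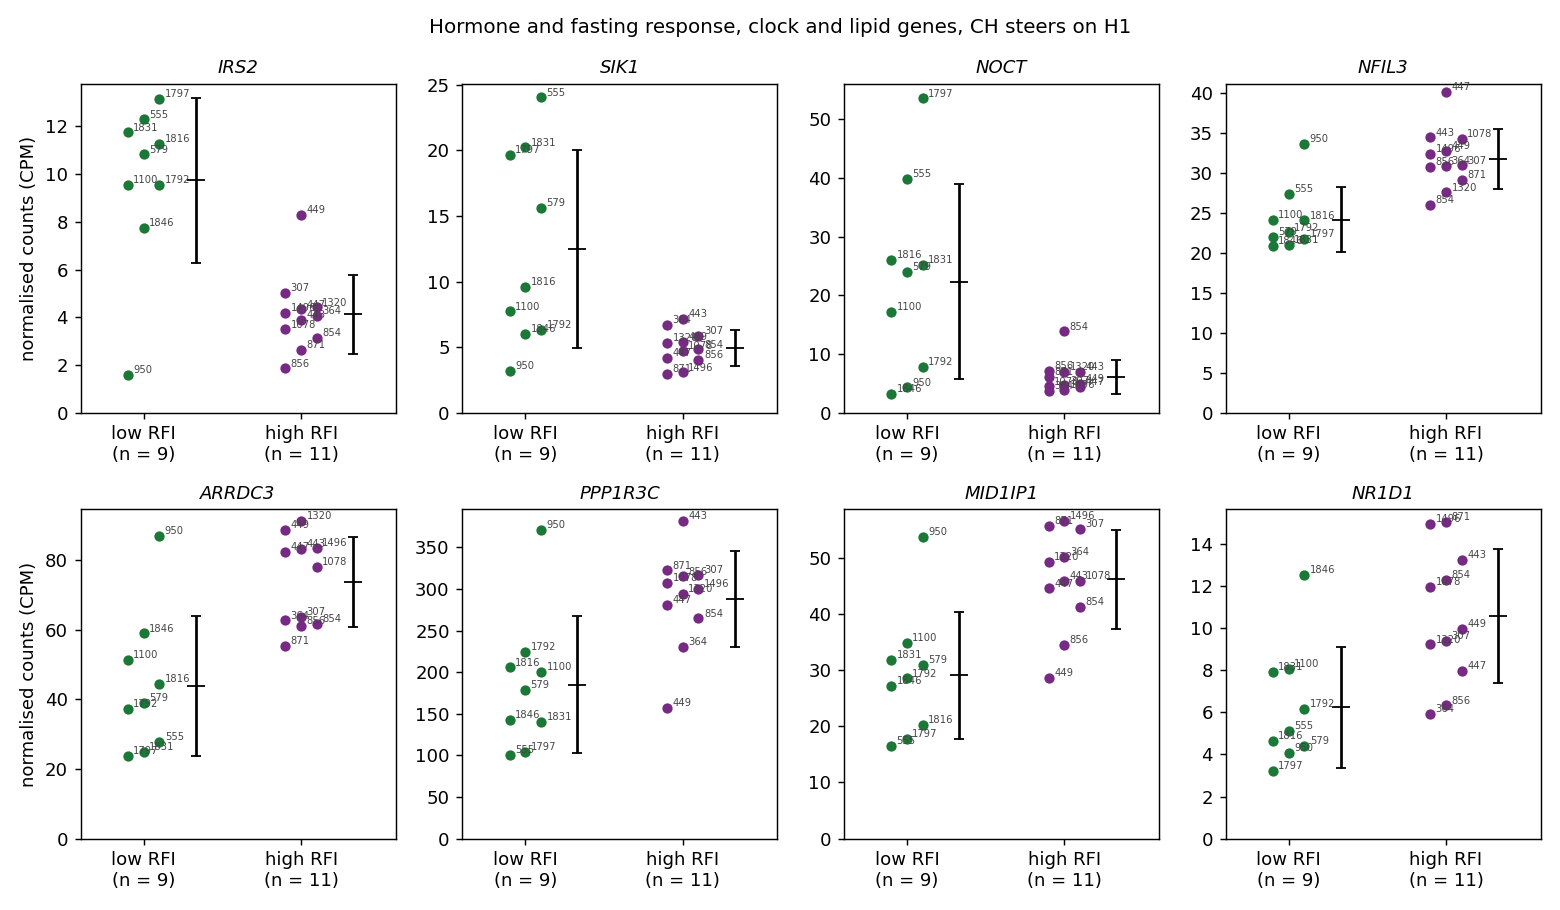
Normalised counts (CPM) of 8 genes of hormone response, clock output and lipid synthesis in each CH steer on H1, with steer numbers and the group mean ± SD as a bar. The low RFI steer 950 lies among or beyond the high RFI steers for every gene but NR1D1, where it has 4.07 CPM and the lowest high RFI steer 5.95 CPM.

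Among genes of the circadian clock and its output, 3 of 24 could be found, 1 with a higher and 2 with a lower mean at an unadjusted p under 0.05. The study had listed all 3 on these steers, so this count too is not independent evidence beside 6.04% and 5.71% of all genes. NOCT, a phosphatase with a strong daily rhythm that also answers to feeding, had the highest log2 fold change of the genes described here. In low RFI steers NOCT ran from 3.29 CPM in steer 1846 through a median of 23.99 CPM to 53.6 CPM in steer 1797, and in high RFI steers from 3.68 CPM through 4.97 CPM to 13.9 CPM in steer 854. The low RFI group was split: steers 1846, 950 and 1792 had 3.29, 4.33 and 7.90 CPM, within the high RFI range or below it, and the other 6 had at least 17.2 CPM. On the log2 scale the groups differed by 1.88 (SE 0.42), at an adjusted p of 0.183 in edgeR and 0.0126 in DESeq2. NFIL3, a repressor of clock-controlled genes, had 24.2 ± 4.09 CPM against 31.8 ± 3.81 CPM, with 7 of 9 low RFI steers below every high RFI steer and steer 950 above most of them at 33.7 CPM (log2 fold change -0.40, SE 0.09, adjusted p = 0.183). NR1D1, the nuclear receptor REV-ERB alpha, had 6.23 ± 2.89 CPM against 10.6 ± 3.18 CPM (log2 fold change -0.75, SE 0.23, adjusted p = 0.256). The hour of each biopsy was not used here.

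Of 34 immediate early genes, which are switched on within minutes of a stimulus, 3 were found, each listed by the study on these steers and with a higher mean in low RFI steers. JUN, a subunit of the AP-1 factor, had 20.8 ± 3.58 CPM against 16.0 ± 2.59 CPM (log2 fold change 0.38, SE 0.10, adjusted p = 0.243 from edgeR). MYC, a growth regulator, had 8.56 ± 4.46 CPM against 5.03 ± 1.63 CPM (log2 fold change 0.76, SE 0.23, adjusted p = 0.256). GADD45G, a stress-induced regulator of growth arrest, had a median of 13.3 CPM in low and 8.53 CPM in high RFI steers. A single animal carried much of these means: steer 555 had 19.5 CPM of MYC and 72.6 CPM of GADD45G, and without it the log2 fold change of GADD45G was 0.69 in place of 1.23.

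Genes of cell division had higher means in low RFI steers throughout the members that could be found. Of the mitosis list, 10 of 38 genes were found, all 10 had a positive log2 fold change with a median of 0.96, and 9 had an unadjusted p under 0.05, while none was called by edgeR. Of the replication and repair list, 7 of 37 were found, and all 7 had a positive log2 fold change, with a median of 0.61, and an unadjusted p under 0.05. Over all genes tested the median log2 fold change was 0.00 and 6.04% were higher at that p. 16 of these 17 genes had been listed by the study on these same libraries, the exception being KIF23 (log2 fold change 0.17, SE 0.18), so the counts are not independent evidence.

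TONSL, which guards newly replicated chromatin, had 4.35 ± 0.880 CPM in low and 2.75 ± 0.640 CPM in high RFI steers (log2 fold change 0.65, SE 0.14, adjusted p = 0.183 from edgeR). TFDP1, the partner of E2F factors, had 22.1 ± 2.45 CPM against 17.1 ± 2.497 CPM, and RAD54L, a motor of recombination repair, had 3.74 ± 0.732 CPM against 2.40 ± 0.596 CPM, where edgeR gave each an adjusted p of 0.183. MCM2, a subunit of the replicative helicase, had 9.54 ± 2.46 CPM against 6.40 ± 1.62 CPM (adjusted p = 0.215). For these genes 5 to 7 of the 9 low RFI steers exceeded all 11 high RFI steers.

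KIFC1, a motor that gathers centrosomes, ran from 1.68 CPM in steer 1831 through a median of 3.95 CPM to 8.75 CPM in steer 950 among low RFI steers, and from 0.582 through 1.88 to 3.96 CPM among high RFI steers (log2 fold change 1.14, SE 0.27, adjusted p = 0.183). The spindle checkpoint kinases BUB1 and BUB1B had their highest values in steer 950, at 7.33 CPM each, and TROAP and CKAP2, which bind the spindle, did so too, at 8.93 and 14.5 CPM. The next low RFI steer, 555, had 3.82 CPM of BUB1 and 3.82 CPM of BUB1B. Steer 1831 stood at the other end, with 0.804 CPM of BUB1, below most high RFI steers. In log2 values averaged over the 10 mitosis genes and set against the mean of the 20 steers, low RFI steers ran from -0.51 in steer 1831 to 1.28 in steer 950, and high RFI steers from -0.65 in steer 871 to 0.30 in steer 364, so that the groups overlapped. In biopsies of whole tissue, more dividing cells and more RNA of these genes per cell cannot be told apart.

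**Figure D3:**
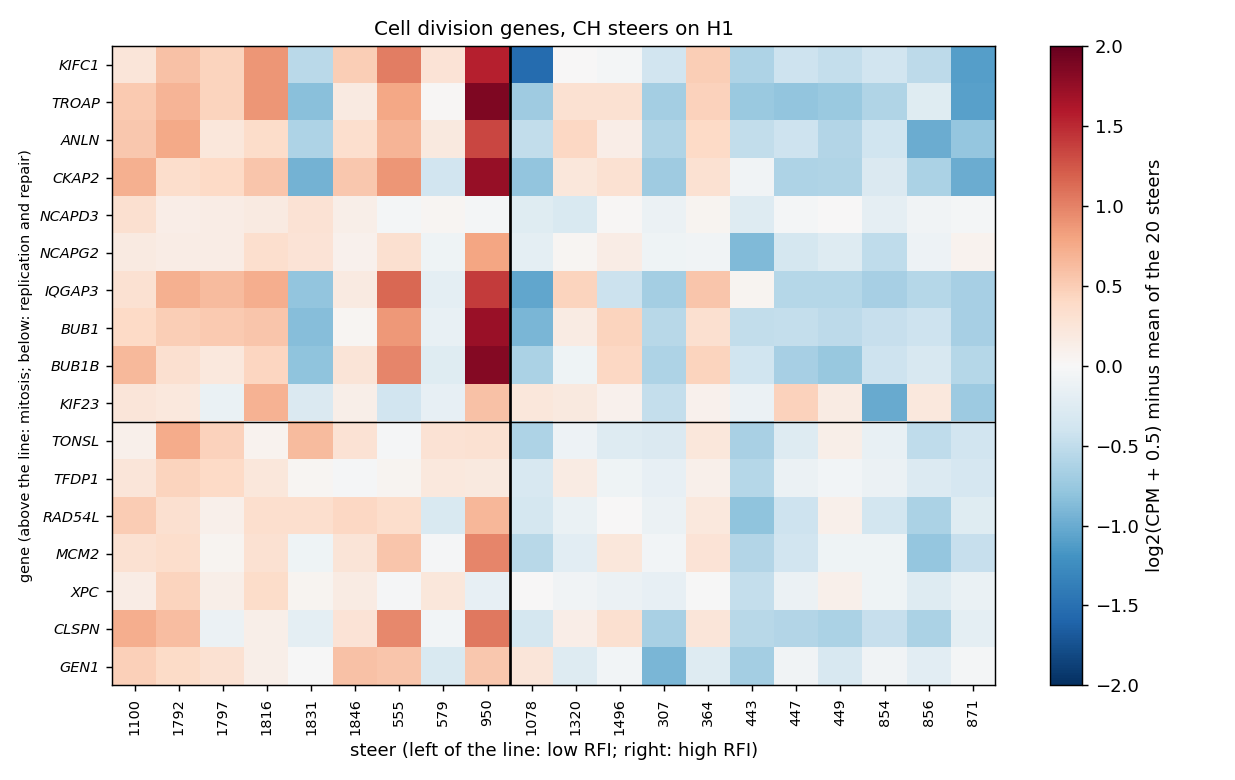
Heat map of 10 mitosis and 7 replication and repair genes (rows) in the 20 CH steers on H1 (columns), coloured by log2(CPM + 0.5) minus the mean of the 20 steers. Most low RFI columns are above the mean and most high RFI columns below it, with steer 950 the highest for BUB1, BUB1B, CKAP2 and TROAP, and with steer 1831 of the low RFI group below the mean for most mitosis genes.

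Markers of other liver cells had higher means in low RFI steers where any could be found and tested. All of these, and GIMAP8 and RGS1 below, had been listed by the study on these steers. Their directions are thus not independent evidence. GIMAP8 and RGS1 were not on the marker lists and were picked for their small p. Of 16 markers of T and NK cells, the 2 that were found, both listed by the study on these steers, had higher means in low RFI steers, and neither was at 0 in any steer. PTPRCAP, which binds the phosphatase CD45 on lymphocytes, ran from 3.54 to 8.47 CPM in low and from 2.87 to 4.89 CPM in high RFI steers (log2 fold change 0.53, SE 0.13, adjusted p = 0.188 from edgeR). GPR174, a lysophospholipid receptor of lymphocytes, ran from 1.86 to 4.14 CPM and from 1.10 to 2.66 CPM, respectively (log2 fold change 0.62, SE 0.16, adjusted p = 0.19). Beside them stood GIMAP8, a GTPase of lymphocytes, with 24.2 ± 6.74 CPM against 15.9 ± 3.01 CPM (log2 fold change 0.60, SE 0.13, adjusted p = 0.183), and RGS1, a regulator of chemokine receptor signalling, with 2.07 ± 1.22 CPM against 0.814 ± 0.309 CPM (log2 fold change 1.29, SE 0.30, adjusted p = 0.183). PKHD1, the 1 of 8 cholangiocyte markers found, had 23.7 ± 7.31 CPM against 15.0 ± 4.43 CPM (log2 fold change 0.65, SE 0.18, adjusted p = 0.249). None of the macrophage, B cell, neutrophil, endothelial, stellate, erythroid, muscle or adipocyte markers could be matched, the 1 pancreas marker found had too few reads to be tested, no gene of the growth hormone and IGF list was found, and the part of cell composition in the results was not tested.

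DGAT2 and MID1IP1, genes of fat synthesis that the study listed on these steers, had lower means in low RFI steers. DGAT2, which makes triglyceride from diacylglycerol, had 32.0 ± 6.89 CPM against 45.9 ± 10.4 CPM, with 4 of 9 low RFI steers below every high RFI steer (log2 fold change -0.52, SE 0.14, adjusted p = 0.209 from edgeR and 0.047 from DESeq2). MID1IP1, which activates acetyl-CoA carboxylase, had a median of 28.5 CPM in low and 45.9 CPM in high RFI steers, and steer 950 at 53.7 CPM was the only low RFI steer above 34.9 CPM (log2 fold change -0.67, SE 0.18, adjusted p = 0.227). Just 3 of 29 genes of the list were found, and the third, the lipid droplet gene CIDEC, had medians of 0.841 CPM in low and 1.08 CPM in high RFI steers. Its log2 fold change of -1.11 (SE 0.62; exact permutation p = 0.439) rested on steer 307 at 8.57 CPM and was -0.31 without it. SOAT2, which esterifies cholesterol, went the other way with 17.8 ± 7.92 CPM against 11.1 ± 2.99 CPM (log2 fold change 0.70, SE 0.22, adjusted p = 0.264).

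Among genes with a symbol, those with lower expression and the smallest p had log2 fold changes of modest size. GNPDA1, which turns glucosamine phosphate into fructose phosphate, ran from 11.6 to 17.0 CPM in low and from 16.6 to 21.8 CPM in high RFI steers, with 8 of 9 low RFI steers below every high RFI steer (log2 fold change -0.35, SE 0.08, adjusted p = 0.183 from edgeR). KIAA2012, whose protein is little described, had 13.9 ± 1.77 CPM against 20.1 ± 4.25 CPM (log2 fold change -0.52, SE 0.11), and MB21D2, a relative of the DNA sensor cGAS, had 3.43 ± 0.470 CPM against 4.91 ± 0.983 CPM (log2 fold change -0.51, SE 0.12), where edgeR gave each an adjusted p of 0.183. For METTL7B, a methyltransferase of lipid droplets and the endoplasmic reticulum, the means were 334 ± 37.7 and 416 ± 38.5 CPM (log2 fold change -0.32, SE 0.08). FAM149A had 95.7 ± 6.09 CPM against 114 ± 10.4 CPM, KPNA6, a nuclear import receptor, 20.1 ± 1.81 against 24.4 ± 2.22 CPM, and S100A14, a calcium-binding protein, 35.6 ± 6.02 against 45.3 ± 3.75 CPM, each with an adjusted p of 0.183.

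Most of the few genes of protein synthesis and turnover that were found had lower means in low RFI steers. EIF3I, a subunit of the initiation factor that loads ribosomes on mRNA, had 98.3 ± 10.7 CPM in low and 122 ± 13.0 CPM in high RFI steers, with 7 of 9 low RFI steers below every high RFI steer (log2 fold change -0.31, SE 0.08, adjusted p = 0.183 from edgeR). EIF4B and the elongation factor EEF2 differed by -0.33 (SE 0.10) and -0.27 (SE 0.09) on the log2 scale, so that all 3 of the 36 translation factors that could be found had a negative log2 fold change at an unadjusted p under 0.05, beside 5.71% of all genes. The study had listed all 3 on these same steers, so their count is not independent evidence. TRMT112, a partner of methyltransferases that act on tRNA and ribosomes, had 12.4 ± 1.34 against 15.2 ± 1.25 CPM (adjusted p = 0.183). The ribosomal protein gene RPL19 differed by -0.29 on the log2 scale (SE 0.09, adjusted p = 0.256), and RPL13, the other one found, 0.11 (SE 0.11). The proteasome genes PSMB2 and PSMF1, of protein breakdown, differed by -0.19 (SE 0.06) and -0.31 (SE 0.09) on that scale.

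Several metabolic enzymes had lower means as well. NDUFA4, a small protein of the respiratory chain, had 96.5 ± 13.4 CPM against 124 ± 14.1 CPM (log2 fold change -0.36, SE 0.09, adjusted p = 0.183 from edgeR), with steer 1792 lowest at 66.1 CPM. AHCY, which clears S-adenosylhomocysteine in the methionine cycle, had 1800 ± 269.5 CPM against 2247 ± 273 CPM (log2 fold change -0.32, SE 0.10, adjusted p = 0.256), and GLDC, the glycine decarboxylase, had a log2 fold change of -0.25 (SE 0.08). The study had listed both on these steers, and the other 3 of the 5 methionine and one-carbon genes found were BHMT2 at 0.27 (SE 0.21), SARDH at 0.07 (SE 0.14) and DMGDH at -0.05 (SE 0.13). For 43 detoxification symbols, 7 identifiers were found, 2 of them under the symbol GSTM1. All 7 had a negative log2 fold change and 5 an unadjusted p under 0.05, beside 5.71% of all genes. The study had listed 4 of those 5 on these steers, and of the 3 identifiers not so listed 1 had an unadjusted p under 0.05. Among them PRDX6, a peroxidase, had 153 ± 21.1 against 200.3 ± 35.7 CPM, CYP3A5, a drug-metabolising cytochrome, had 393 ± 74.8 against 519 ± 79.8 CPM, MAOB, which breaks down amines, had 587 ± 74.7 against 720 ± 81.0 CPM, and EPHX1, an epoxide hydrolase, had 1031 ± 147 against 1334 ± 254 CPM, with adjusted p-values of 0.198, 0.241, 0.256 and 0.256 from edgeR. The fifth was 1 of 2 gene copies named GSTM1, a glutathione transferase, with a log2 fold change of -0.47 (SE 0.22), and reads can be split between such copies.

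The remaining genes with higher expression came from several processes. ONECUT1, a transcription factor of hepatocytes and bile duct cells, had 25.0 ± 3.55 CPM in low and 17.9 ± 3.14 CPM in high RFI steers (log2 fold change 0.48, SE 0.10). SLC12A7, a potassium chloride cotransporter, had 94.5 ± 15.1 against 68.5 ± 11.3 CPM (log2 fold change 0.46, SE 0.10). SARM1, which cleaves NAD, had 6.68 ± 1.35 against 4.46 ± 0.815 CPM (log2 fold change 0.57, SE 0.13). In each of these, 6 or 7 of the 9 low RFI steers exceeded all 11 high RFI steers, and the adjusted p from edgeR was 0.183. ANOS1, a matrix protein, NRCAM, an adhesion molecule, and ARGLU1, a splicing regulator, differed by 0.71 (SE 0.16), 1.03 (SE 0.24) and 0.36 (SE 0.08) on the log2 scale at the same adjusted p.

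Acute phase proteins, which the liver secretes in inflammation, gave no common direction. Of 32 on the list 6 were found, 2 of them higher and 4 lower in mean. FETUB, a protease inhibitor of plasma, had a median of 185.5 CPM in low and 129 CPM in high RFI steers, with steer 950 far above the rest at 613 CPM (log2 fold change 0.88, SE 0.26, adjusted p = 0.256 from edgeR). M-SAA3.2, a serum amyloid A of mammary and other tissues, was at most 1.67 CPM in low RFI steers. In high RFI steers its median was 0.817 CPM, and 3 steers stood out, 1320 at 22.1 CPM, 447 at 19.8 CPM and 1078 at 5.49 CPM (log2 fold change -2.92, SE 0.95, adjusted p = 0.27). For haptoglobin (HP) 1 steer in each group stood far above the others, steer 1792 of low RFI at 3061 CPM and steer 364 of high RFI at 3007 CPM. The sign of the difference in HP depended on them: the log2 fold change was 0.72 (SE 0.91) with all steers, -0.20 without steer 1792 and 2.31 without steer 364, and DESeq2, which replaces single outlying counts, gave 2.25 (adjusted p = 0.0534).

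Steers differed in how closely they followed their group. The 12 genes with higher and the 12 with lower expression that had the smallest p among genes with a symbol were used. For each, every steer was placed on the low or high RFI side of the midpoint between group means in log2 values. Since the genes were chosen on these steers, the counts are a description. In the low RFI group steers 1792 and 1797 were on the low RFI side for 23 of 24 genes, and steers 555 and 950 for 17. In the high RFI group steers 1078, 443 and 871 were on that side for 1 gene, steer 1320 for 8 and steer 364 for 10. Leaving out single steers gave 56 calls by edgeR without steer 364, 44 without steer 950 and 0 without steer 1792. The calls did not track these counts in every steer: edgeR called 2 genes without steer 555, without steer 1320 and without steer 1797, as with all steers.

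**Figure D4:**
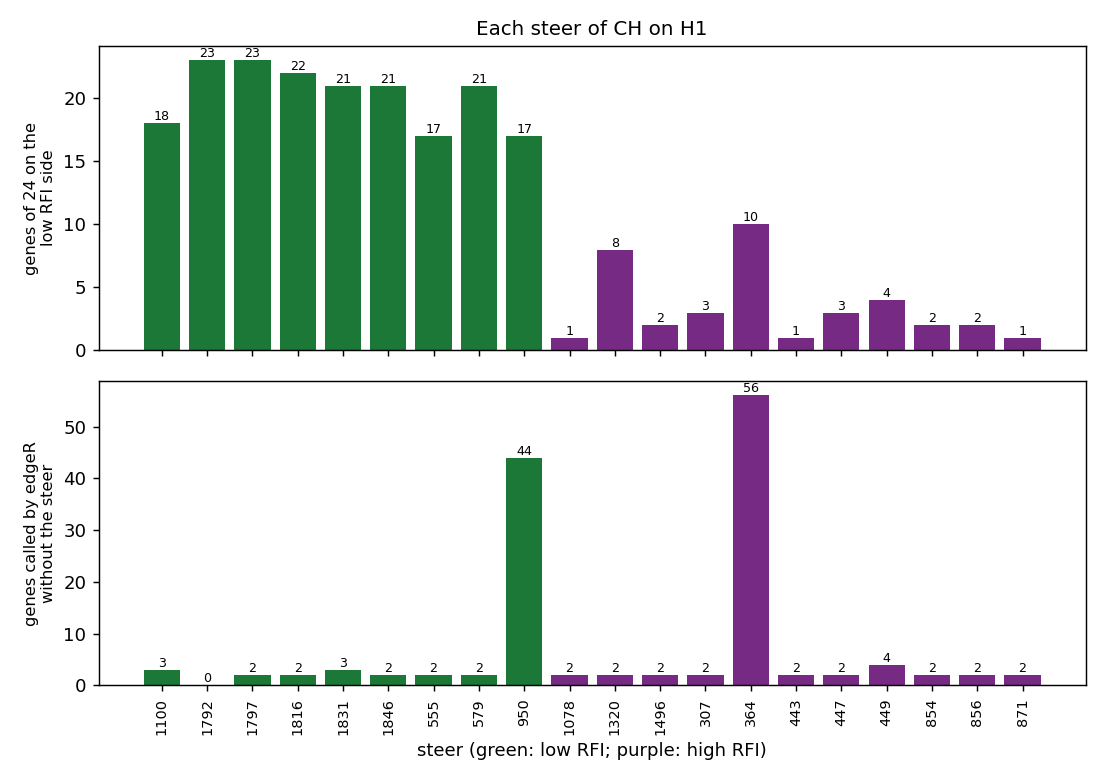
Upper bars, the number of the 24 genes for which each CH steer on H1 lies on the low RFI side of the midpoint between group means. The 24 had the smallest p among genes with a symbol, taken in equal number from each direction. Lower bars, the number of genes edgeR called when that steer was left out, 56 for steer 364, 44 for steer 950 and at most 4 for any other.

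The RFI effect was set beside that in HF steers on the same H1 diet. In the fit of both breeds, edgeR called 0 of 13454 genes (0%) for a difference between CH and HF in the RFI effect, where 1271 had an unadjusted p under 0.05 and DESeq2 called 30. Of 1425 genes with an unadjusted p under 0.05 in CH that were tested in each comparison, 43.6% had the same direction in HF, against 48.4% of all 12320 genes. Of the 24 genes with the smallest p and a symbol, 23 were tested in each comparison. In HF 15 of these 23 (65.2%) had the same direction. TNFAIP3 had a log2 fold change of 0.29 (SE 0.17) in HF, and the difference between the breeds was 0.38 (SE 0.20, adjusted p = 0.55 from edgeR). For KRBA1 the log2 fold change in HF was 0.13 (SE 0.36), and the difference was 1.26 (SE 0.43, adjusted p = 0.373).

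NOCT and SLC12A7 were among the genes with the smallest p for the difference between breeds. With all 90 libraries scaled together, NOCT had 3.38 ± 1.22 CPM in low (n = 7) and 7.43 ± 5.75 CPM in high RFI HF steers (n = 9), a log2 fold change of -1.14 (SE 0.43), and the difference from CH was 3.02 (SE 0.64, unadjusted p = 3.84e-05, adjusted p = 0.224 from edgeR). SLC12A7 had a log2 fold change of -0.19 (SE 0.10) in HF and a difference of 0.66 (SE 0.14, adjusted p = 0.224). RAD54L and NCAPD3, a condensin subunit, had differences of 0.93 (SE 0.22) and 0.47 (SE 0.11) at the same adjusted p, with negative log2 fold changes in HF of -0.31 (SE 0.16) and -0.23 (SE 0.10).

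The same diet offered later to CH steers gave other values again. For a difference between H1 and H2 in the RFI effect, edgeR called 0 of 13228 genes (0%), 996 had an unadjusted p under 0.05, and DESeq2 called 1. With the steer as a block in limma-voom, for the 4 steers with a library in both phases, 0 genes were called and 1049 had an unadjusted p under 0.05. Of the 1425 genes above, 40.6% had the same direction in CH on H2, against 46.1% of all 12320 genes. Of the 23 genes above, 14 (60.9%) did. These 4 steers link the phases, and 2 of them changed their RFI label between the phases.

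TNFAIP3 had a log2 fold change of 0.19 (SE 0.21) on H2, and the difference between the phases was 0.48 (SE 0.23, adjusted p = 0.643 from edgeR). KRBA1 was too low on H2 to be tested there, at 0.167 ± 0.155 CPM in low (n = 9) and 0.196 ± 0.167 CPM in high RFI steers (n = 8) when all 90 libraries were scaled together, and the difference was 1.61 (SE 0.57, adjusted p = 0.62). GIMAP8 and RAD54L had the smallest p for the difference: GIMAP8 had 15.2 ± 3.66 CPM in low and 20.3 ± 5.45 CPM in high RFI steers on H2, opposite to H1, with a difference of 1.01 (SE 0.22, unadjusted p = 6.54e-05, adjusted p = 0.459). NR1D1 had a lower mean in low RFI steers on H2 too, with a log2 fold change of -0.82 (SE 0.38). Its p from edgeR was 0.0449 unadjusted and 0.998 adjusted. In that comparison 355 of 12417 genes had an unadjusted p under 0.05, where 621 would be expected by chance.

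**Figure D5:**
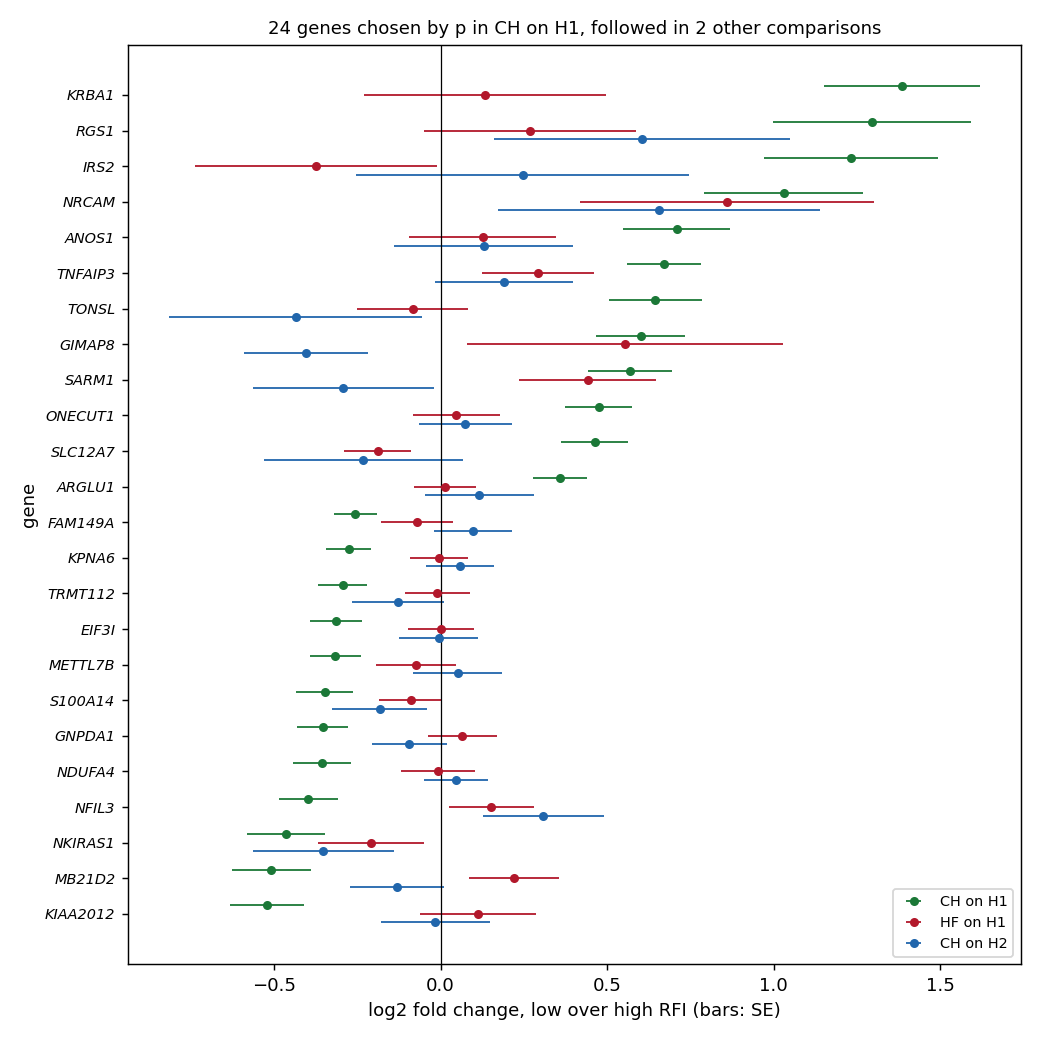
Log2 fold changes of low over high RFI with SE bars in CH on H1, HF on H1 and CH on H2. Shown are the 12 genes with higher and the 12 with lower expression that had the smallest p in CH on H1 among genes with a symbol. Genes were chosen on the CH H1 values; most HF and H2 values lie nearer 0, and KRBA1 has no value on H2.

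Among the 20 steers, 7 had a library in another phase, and the values below are on the scale of all 90 libraries. Steer 1100, low RFI on H1 and high RFI on H2, had 9.20 CPM of TNFAIP3 on H1 and 5.32 CPM on H2. Steer 307, high RFI on H1 and low RFI on H2, had 7.85 and 6.92 CPM, respectively. The 2 steers that were high RFI in both phases also had less on H2, with 8.16 and 7.29 CPM for steer 1320 and 6.39 and 5.68 CPM for steer 364. All 4 thus had a lower value on H2, whichever way their label went, but the group means did not both fall. In high RFI CH steers the mean was 6.16 CPM on H1 (n = 11) and 6.73 CPM on H2 (n = 8). In low RFI CH steers it was 9.77 and 7.64 CPM (n = 9 in each). Steers 1320 and 307 had the highest values of the high RFI group on H1. Steer 1816, low RFI on H1 and high RFI on zero-grazed grass, had 11.5 and 5.73 CPM, and steer 1831, low RFI in both, had 7.87 and 6.36 CPM. Steer 307 also had a library on zero-grazed grass, with 3.86 CPM, and steer 1797 had 11.7 CPM on H1 and 6.78 CPM in its H2 library, labelled HF. IRS2 too was lower on H2 than on H1 in each of the 4 steers 1100, 307, 1320 and 364, with 8.68 and 0.678 CPM in steer 1100 and 4.66 and 1.38 CPM in steer 307.

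The genes whose log2 values followed the 2 called genes most closely over the 20 steers, after group means were subtracted, mostly had no symbol here. For TNFAIP3 the 5 closest had Pearson's r of 0.75 to 0.81, and none of them had a symbol. For KRBA1 the 5 closest had r of 0.78 to 0.81, and SPATA2L, a relative of the deubiquitinase adaptor SPATA2, was the only one with a symbol (r = 0.80). SPATA2L itself had a log2 fold change of 0.18 (unadjusted p = 0.279). These correlations are a description over 20 libraries that differ in depth.

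Genes that the study listed for CH steers on zero-grazed grass were also looked at on H1. All 158 were tested, 112 had a higher and 46 a lower mean in low RFI steers, with a median log2 fold change of 0.11, and 21 and 3, respectively, had an unadjusted p under 0.05. That is 15.2% of them, beside 11.7% of all genes in either direction, with 6.04% higher and 5.71% lower. The 158 include GADD45G, HP and MID1IP1, which the study had listed on these H1 steers too. Of 188 tested genes that it listed for any other group but not for CH on H1, 14.4% had an unadjusted p under 0.05. The 6 libraries on zero-grazed grass included 3 of the steers described here.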

How the data were processed

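Liver biopsies were sequenced as 50-base single-end reads. The authors deposited raw read counts per Ensembl gene, made by mapping reads to the UMD3.1 bovine genome with STAR (2.5.3a in the submitters' processing notes) and counting with its gene count option after quality checks with FastQC 0.11.5, and no count had been normalised or pooled. These counts were used as deposited. Samples were grouped by breed, diet and RFI group as the labels give them.

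Low and high RFI steers were compared with edgeR 4.0.16 and limma 3.58.1 (R 4.3.3), with genes kept by filterByExpr, TMM scaling, the robust quasi-likelihood fit and Benjamini-Hochberg adjustment at 0.1. DESeq2 1.42.0 was the main alternative. The difference of the RFI effect between breeds on H1 and between H1 and H2 in CH was tested as an interaction term. Single values were tested with two-sided exact permutation tests of log2(CPM + 0.5), whose smallest possible p was 5.95e-06. Tables and plots were made with Python 3.11.15. Counts bear sampling error that is largest in the genes with few reads, such as KRBA1, and single cells were not resolved.

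Gene symbols came from the study's lists alone (328 of 352 identifiers listed), as the count table has Ensembl identifiers only, so list checks were void at under 80% of members and are given as counts of the genes found. The members and the lists were chosen with earlier results of these data known. Genes were named by rule: those called, the 12 in each direction with the smallest p and a symbol, the member of each list with the smallest p in each direction, genes with an outlying steer (which added none), and the 5 closest correlates of each called gene. Further list members were named after their values were seen. Columns of the study's own comparisons, with fold changes and p-values, were not used. Counts were also simulated with 200 genes that differed by 1 on the log2 scale. For low against high RFI CH steers on H1 (12920 genes), edgeR found 93% with 18 false calls and DESeq2 95.5% with 40. For the difference between breeds edgeR found 74.5% with 12 false calls and DESeq2 76.5% with 25. For the difference between H1 and H2 edgeR found 67.5% with 14 false calls and DESeq2 70.5% with 35. Recovery of smaller differences was not tested. Simulated counts were drawn for each gene separately around 1 common mean, with no steer set apart and no tie between genes. The shares found thus cannot be carried over to the real libraries. There edgeR did not call IRS2, SIK1 or NOCT, with log2 fold changes of 1.23, 1.34 and 1.88. The median absolute log2 fold change in CH on H1 was 0.475 over 147 genes that the study listed there. The alternatives were other tools, scaling, filters and samples. The labels name each steer, but nothing says that replicate numbers mark a shared batch. One gene is not reported here, and no sequences are shown.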

Additional observations from a re-analysis of the deposited data

Results flagged for a closer look

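Single steers lay far from the other low RFI steers for 13 of 83 genes, by the gap to the nearest steer as a share of the range of the 9, where chance gives about 1 in 20. The genes had been chosen by small p or list and several are correlated, so they are not independent draws and the share cannot be read against that figure. Steer 950 was the outlying animal in 9 of them. It had the lowest IRS2 (1.59 CPM) and the highest MID1IP1 (53.7 CPM) and PPP1R3C (371 CPM), genes of insulin response, fat synthesis and glycogen. In the same steer the mitosis genes NCAPG2 (6.10 CPM), TROAP (8.93 CPM), CKAP2 (14.5 CPM), BUB1 (7.33 CPM) and BUB1B (7.33 CPM) were highest, as was the plasma protein gene FETUB (613 CPM). Steer 555 had the highest MYC (19.5 CPM) and GADD45G (72.6 CPM). Steer 1792 had the lowest NDUFA4 (66.1 CPM) and the highest HP (3061 CPM). The high RFI group of 11 was not examined in this way. What sets these steers apart was not tested.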

How the results depend on the processing

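Both calls, TNFAIP3 and KRBA1, were made again with DESeq2 size factors, with no filter, without robust, with log10 depth as covariate and without the library of steer 1797. The number of genes higher and lower in low RFI CH steers on H1 was 2 and 0 in edgeR, 84 and 76 with DESeq2, 36 and 25 with DESeq2 without steer 1797, 85 and 82 with DESeq2 without outlier replacement, 10 and 9 with limma-voom, 3 and 1 with all 12 groups in one fit, and 1 and 0 with at least 10 counts in every library, a filter that leaves KRBA1 out. Leaving out 1 steer at a time gave 0 to 40 higher and 0 to 16 lower genes, with 0 calls without steer 1792, 56 without 364, 44 without 950, 4 without 449 and 3 without 1100 or 1831. With all 12 groups KRBA1 had a log2 fold change of 1.37 (adjusted p = 0.502). For the difference between breeds edgeR called 0 higher and 0 lower, DESeq2 18 and 12, and DESeq2 without steer 1797 8 and 4. For the difference between H1 and H2 DESeq2, DESeq2 without steer 1797 and edgeR with no filter each called 1 gene, higher, and edgeR with its filter 0. The sign changed for LBP (-0.25, against 0.0061 in limma-voom and -0.34 to 0.027 with 1 steer left out, positive without 364), HP (0.72, against -0.20 without steer 1792 to 2.31 without 364), SARDH (0.072, against -0.002838 with depth as covariate) and FGG (-0.047, against 0.016 in limma-voom and -0.12 to 0.021 with 1 steer left out, positive without 1792 at 0.011 and without 364). The cause was not tested. The DESeq2 fits without steer 1797 or without outlier replacement, and limma-voom without the steer, were chosen after seeing the data. No paired analysis was possible because each steer gave 1 library within H1 and replicate numbers were given in accession order. Between H1 and H2, limma-voom with the steer as replicate block called 0 genes higher and 0 lower (within-steer correlation 0.5153), as it did without the block. Few reads limit several genes, among them KRBA1 (2 to 53 counts a library), CIDEC (from 2), M-SAA3.2 (from 1), RGS1 (from 2) and IL1A (from 3).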

Other observations

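ASIP, which encodes the agouti signalling protein, was too rarely detected to pass the filter on low counts in the 20 CH libraries on H1. Yet 2 low RFI CH steers on H1 had many reads of it. Steer 579 had 223 counts and steer 950 had 112, while no high RFI CH steer on H1 had more than 3. On H2 the animals with many reads carried the other label: the high RFI CH steers 359, 860, 419 and 1840 had 74, 194, 205 and 244 counts, and no low RFI CH steer had more than 3. Over the 90 libraries 8 had more than 50 counts. ASIP is the gene that DESeq2 called for the difference between H1 and H2 in CH (adjusted p = 7.85e-05), and that edgeR called with no filter (adjusted p = 0.0229). With all 12 groups in one fit ASIP passed the filter, and edgeR called it for low against high RFI in CH on H1.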
